A study of Mus musculus with 6 samples.

Results

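The 38 genes described here make, sense, export or store sterols and make fatty acids. They were chosen by symbol, each matched 1 identifier among the 46078 genes of the count tables, and all 38 were among the 18097 genes that passed the low-count filter. They fall into 18 genes of sterol synthesis, 6 of SREBP control, 5 of LXR efflux and 8 of fatty acid synthesis, and Soat1, which stores sterol as ester, was kept apart. Total RNA was sequenced from 3 mouse libraries labelled JMML, for juvenile myelomonocytic leukemia, and 3 labelled wild type (WT). JMML is a leukemia of early childhood with excess monocytic cells, and the series title names a mouse model in which fetal blood formation is sustained. The labels name no tissue, age, strain, altered gene or Cre driver, and do not say that replicates were separate animals. P-values set the difference between the groups against the spread within them, for these 6 samples only.

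Cells make cholesterol from acetyl-CoA through the mevalonate pathway, which also feeds the isoprenoid tails of Ras and other prenylated proteins. When sterol in the endoplasmic reticulum is low, SCAP carries the transcription factor SREBP2 to the Golgi, where it is cut and released to switch on the pathway; Insig proteins hold SCAP back when sterol is plentiful. When oxysterols are high, the nuclear receptors LXR-alpha and LXR-beta switch on the exporters ABCA1 and ABCG1. SREBP1 acts mainly on fatty acid synthesis, and macrophages lean on ABCA1 and ABCG1 to shed cholesterol taken up from engulfed cells.

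Library totals ranged from 47096464 to 108395459 counts, with the JMML libraries deeper, so that 1 count was worth 0.00923 to 0.0212 CPM, the count scaled to library size. Member counts in single libraries ranged from 94 for Nr1h3 to 39192 for Acly. The library names close with the letter F for JMML replicates 1 and 2, and with M for the remaining 4. JMML replicate 3 and WT replicate 3 share the first part of their names, whose meaning the labels do not give. The X-inactivation RNA Xist was counted 54449 and 49961 times in the F libraries and 36 times or fewer in the M libraries, while Y-linked Ddx3y was at 0 in the F libraries and at 3588 or more in the M libraries, so sex differed partly with the group, and within JMML the letter cannot be told apart from replicate 3. A fit with the letter as a covariate, or on the M libraries alone, therefore compares JMML replicate 3 with WT and is no estimate for the group. B-cell, erythroid and megakaryocyte markers were much lower in JMML, with 10 of 10, 8 of 10 and 8 of 8 called lower. T-cell (7 of 8) and endothelial markers (6 of 7) were called lower too, beside 13.8% of all tested genes. With 1 library left out, the erythroid markers called lower ranged from 0 to 10. Neutrophil markers were higher (5 of 10 called, beside 12.4% of all tested genes). S100a8 was at a log2 fold change of 1.28 ± 0.37 (SE) and S100a9 at 1.15 ± 0.38, which was not called. Monocyte markers were higher as well (5 of 7 called, Ly6c2 at 1.48 ± 0.14). JMML replicate 3 stood apart in several branches, and values without it are given for members whose log2 fold change it moved by over 1.5 times or turned.

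The promoters of 4 members are shown before the values. RefSeq windows for GRCm38.p6, from 250 bases before to 50 bases after an annotated start, were found for 30 of the 38 members, 15 of them in sterol synthesis. The CCAAT box, bound by NF-Y, a partner of SREBP, was searched as CCAAT on both strands. The sterol regulatory element was searched as TCACNCCAC on both strands. The next lines give the 250 bases before the start of Hmgcs1, Mvd and Ebp, which rose, and of Abca1, an LXR efflux gene without a CCAAT box, for contrast, 5′ to 3′ on the gene's own strand, with CCAAT boxes in either orientation and the sterol regulatory element in capitals.
Hmgcs1, chr13:119690101-119690350, plus strand: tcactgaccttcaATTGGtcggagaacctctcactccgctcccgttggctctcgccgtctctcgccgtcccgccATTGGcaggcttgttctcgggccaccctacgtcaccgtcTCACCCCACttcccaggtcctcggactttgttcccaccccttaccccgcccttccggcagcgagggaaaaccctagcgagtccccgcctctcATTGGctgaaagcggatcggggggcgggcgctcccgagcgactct
Mvd, chr8:122443423-122443672, minus strand: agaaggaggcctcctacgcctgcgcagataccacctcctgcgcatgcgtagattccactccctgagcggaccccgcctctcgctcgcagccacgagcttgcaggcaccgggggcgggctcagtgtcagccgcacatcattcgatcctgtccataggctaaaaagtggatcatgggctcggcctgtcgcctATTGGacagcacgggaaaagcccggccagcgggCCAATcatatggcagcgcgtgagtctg
Ebp, chrX:8193513-8193762, minus strand: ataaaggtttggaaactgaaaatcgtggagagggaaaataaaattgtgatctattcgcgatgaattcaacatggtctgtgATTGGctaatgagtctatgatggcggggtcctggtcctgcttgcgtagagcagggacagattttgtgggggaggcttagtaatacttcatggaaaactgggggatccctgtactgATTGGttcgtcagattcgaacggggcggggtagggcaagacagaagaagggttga
Abca1, chr4:53159896-53160145, minus strand: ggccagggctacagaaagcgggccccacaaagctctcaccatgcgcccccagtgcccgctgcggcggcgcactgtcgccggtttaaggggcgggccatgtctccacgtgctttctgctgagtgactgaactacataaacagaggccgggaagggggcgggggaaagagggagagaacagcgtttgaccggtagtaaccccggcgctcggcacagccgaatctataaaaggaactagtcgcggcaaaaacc
A CCAAT box lay in a window of 14 of the 15 sterol synthesis genes (93.3%), against 41.1% of all 27025 genes with a window and 37.4% of all 32851 windows. All 14 had one before the start. It lay in 4 of 5 SREBP control genes (80%), in 2 of 5 of fatty acid synthesis and in 1 of 4 of LXR efflux, Mylip. Of members with a window, it lay in 7 of 7 called higher, 0 of 1 called lower and 15 of 22 not called (68.2%). Fdps, called higher, and Scd1, called lower, had no window, and in Acly the box lay after the start. The GC box GGGCGG, bound by Sp1, was in 14 of the 15 sterol synthesis genes, against 38.2% of all genes. The motif shares of all genes cover every gene with a window and were not limited to the 18097 tested genes. A gene counted if any of its windows matched, so genes with more windows match more readily. Only 2 of the 15 sterol synthesis genes had more than 1 window, but 3 of the 5 SREBP control genes did, beside 4163 of all 27025 genes. The windows were rich in G and C, with a median of 60.8% in sterol synthesis and 52.7% over all genes. TCACNCCAC was found in 1 member, Hmgcs1, starting 137 bases before its start, against 1.44% of all genes. The LXR element as an exact direct repeat of AGGTCA 4 bases apart was in none of the members and in 0.0148% of all genes. Only 4 of the 27025 genes matched it, so its absence says little about the members. Looser forms of the element were not searched. A match is a description of letters, not a bound site.

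Of the sterol synthesis genes, Mvd, Fdps, Hmgcs1 and Ebp rose in JMML, and JMML replicate 3 had the highest level of nearly every one. Of 18 members 4 were called higher (22.2%) and none lower by edgeR (quasi-likelihood F test, p adjusted over all genes by Benjamini-Hochberg), and 3 more were called higher with the DESeq2 Wald test, which called 15.1% of all genes higher and 16.9% lower. Over all 18097 tested genes, 12.4% were called higher and 13.8% lower in edgeR, 26.2% in all. The fold change was above 0 in 17 of 18 members, with a median of 0.57 (log2), against 48.5% and a median of −0.02 over all tested genes. At an unadjusted p under 0.05, 8 members were higher and 0 lower, beside 19.3% and 21.6% of all tested genes, and the DESeq2 Wald test called 0 lower. In bulk RNA, more cells that express a gene and more RNA per cell cannot be told apart.

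Mvd, the decarboxylase that forms isopentenyl diphosphate (chromosome 8, 122433601 to 122443422, GRCm38), was at 14.7, 16.2 and 19.7 CPM in the 3 JMML libraries, in replicate order, and at 6.14, 4.39 and 8.03 in WT. Every JMML library lay well above every WT library, and the means were 16.9 ± 2.58 and 6.19 ± 1.82 CPM (SD, n = 3). Mvd rose 2.72-fold, with a log2 fold change of 1.45 ± 0.25 (SE) and an adjusted p of 0.00775 in edgeR. Its call held in all 18 alternative settings, between 1.25 and 1.72; both settings that use the letter hold JMML replicate 3 alone, here and in later counts of settings. Ebp, the isomerase that shifts the sterol double bond (chromosome X, 8185329 to 8193512), had 42.9, 46.8 and 52.1 CPM in JMML and 30.9, 27.1 and 32.6 in WT. The groups did not overlap, and Ebp rose 1.56-fold (0.65 ± 0.13, adjusted p = 0.0133 in edgeR). Ebp is X-linked and sex differed with the letter; within the M libraries, where JMML is replicate 3 alone, the log2 difference from WT was 0.82. Without WT replicate 2 the call of Ebp ended (0.57, adjusted p = 0.0629).

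Hmgcs1, the HMG-CoA synthase of the pathway (chromosome 13, 119690379 to 119708260), had 49.7, 56.6 and 103 CPM in JMML and 29.9, 32.8 and 40.3 in WT. All JMML libraries were above all WT libraries, and replicate 3 stood highest. The log2 fold change was 1.02 ± 0.28, a 2.03-fold rise (adjusted p = 0.0345 in edgeR), and 0.65 without JMML replicate 3 (adjusted p = 0.0434). Fdps, which makes farnesyl diphosphate for sterols and for Ras tails (chromosome 3, 89093588 to 89101959), had 39.7, 43.5 and 120 CPM in JMML and 27.5, 24.7 and 27.1 in WT. Every JMML library was above every WT library, and JMML replicate 3 was 2.87 times the mean of JMML replicates 1 and 2. Fdps rose 2.56-fold (1.35 ± 0.41, adjusted p = 0.0467 in edgeR), and without JMML replicate 3 the log2 fold change was 0.68 (adjusted p = 0.0220). Both calls ended with any single WT replicate left out and with library totals alone as the scaling. The call of Hmgcs1 held in 14 of 18 alternative settings and that of Fdps in 11. Fdps also lost it with voom (adjusted p = 0.079), with a filter of 50 counts (0.0522 in edgeR) and with the replicate block (0.0766 in edgeR).

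The other 14 sterol synthesis genes did not pass the test. The nearest were Cyp51, the lanosterol demethylase, at 1.12 ± 0.36 (adjusted p = 0.0575 in edgeR), Mvk, mevalonate kinase, at 0.77 ± 0.27 (0.0718) and Hsd17b7, a sterol ketone reductase, at 0.95 ± 0.36 (0.0872). These 3 were called higher with the DESeq2 Wald test and with no low-count filter (6.95% of all genes higher, 6.62% lower), and the groups did not overlap in any of them. Without JMML replicate 3 Cyp51 was at 0.58, Mvk at 0.49 and Hsd17b7 at 0.43. The groups did not overlap in 8 of the 18 genes (44.4%), near the 47.5% of all tested genes without overlap in either direction. JMML was higher in each of the 8, against 22.9% of all tested genes. Sqle, squalene epoxidase and a rate-limiting step, had 24.8, 17.1 and 59.8 CPM in JMML and 23.7, 19.4 and 23.1 in WT. Replicate 1 was just above the WT range, replicate 2 below it and replicate 3 far above it. Lss, which closes the sterol ring, had 12.1, 14.2 and 26.0 CPM in JMML and 13.6, 13.4 and 11.6 in WT, with replicate 3 alone standing far from the rest. At the low end, Idi1 (isopentenyl diphosphate isomerase) was at 0.14 ± 0.13, Dhcr7, the last reductase of the pathway, at 0.03 ± 0.19, and Tm7sf2, another sterol reductase, at −0.06 ± 0.25. Acat2, Pmvk, Fdft1, Msmo1, Nsdhl and Sc5d lay between 0.32 and 0.61. Without JMML replicate 3 the values were −0.057 for Sqle, 0.059 for Lss, 0.095 for Fdft1, 0.066 for Nsdhl and 0.14 for Sc5d. They were 0.20 for Acat2, 0.29 for Pmvk, 0.32 for Msmo1, −0.14 for Dhcr7 and −0.27 for Tm7sf2.

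Some members overlap other genes. Fdps, which was called, shares 26.7% of its exon bases with Gm43738 on its own strand, which had at most 9 counts in any library. Hmgcs1, also called, shares 12.1% with the antisense gene Gm48342, and Scap 13.2% with 5830462I19Rik on the opposite strand. Fdft1, squalene synthase, shares 18.3% with Ctsb on the opposite strand, which had 20387 to 62074 counts, and Tm7sf2 shares 12.1% with Vps51 on its own strand. The library kit keeps strand, per the labels, but the counting's use of it is not given in the sources used here, so the values of Fdps, Hmgcs1, Fdft1 (710 to 3187 counts), Scap and Tm7sf2 are uncertain.

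**Figure D1:**
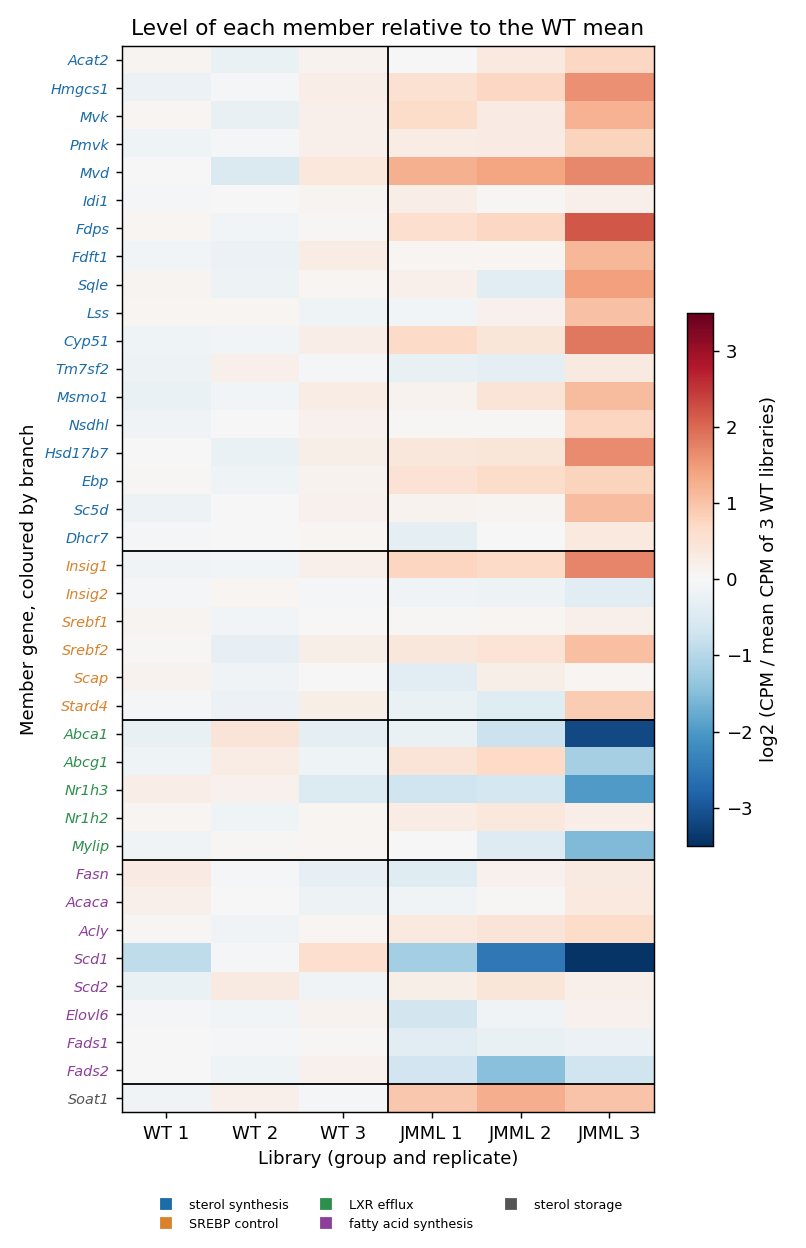
Heat map of the 38 members (rows, symbols coloured by branch) in 6 libraries (columns), as log2 of CPM over the mean CPM of the 3 WT libraries; red is higher and blue lower. JMML replicate 3 shows the deepest red in most sterol synthesis genes and the deepest blue in Abca1, Abcg1, Nr1h3, Mylip and Scd1.

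JMML replicate 3 was the highest of the 6 libraries in 17 of the 18 sterol synthesis genes (94.4%), Idi1 being the exception, against 15.9% of all tested genes. The summed level of the 18 genes was 359, 373 and 692 CPM in JMML, in replicate order, against 277, 267 and 316 in WT. Replicate 3 was apart from all others, while replicates 1 and 2 also lay above the WT range. The median of replicate 3 over the mean of replicates 1 and 2 was 0.78 (log2), against −0.05 over all tested genes. The median of replicates 1 and 2 over WT was 0.22, against −0.02 over all tested genes. Left without replicate 3, the branch kept 4 calls, Mvd, Ebp, Hmgcs1 and Fdps, beside 9.5% of all genes called higher and 8.67% lower, and its median was 0.25. Leaving out JMML replicate 2 gave 6 calls (8.19% of all genes higher, 8.12% lower). Leaving out WT replicates 1, 2 and 3 gave 2, 1 and 2 calls, beside 7.67%, 5.56% and 9% of all genes higher and 8.28%, 6.1% and 8.69% lower. Proliferation genes had 1 of 15 called higher and 1 lower, beside 12.4% and 13.8% of all genes. JMML replicate 3 was the highest library in 9 of these 15, against 15.9% of all genes, with a median of 0.34 (log2) over JMML replicates 1 and 2. Their summed level was 5851, 5642 and 6825 CPM in JMML and 6452 to 7084 in WT, and their part in the result was not tested.

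**Figure D2:**
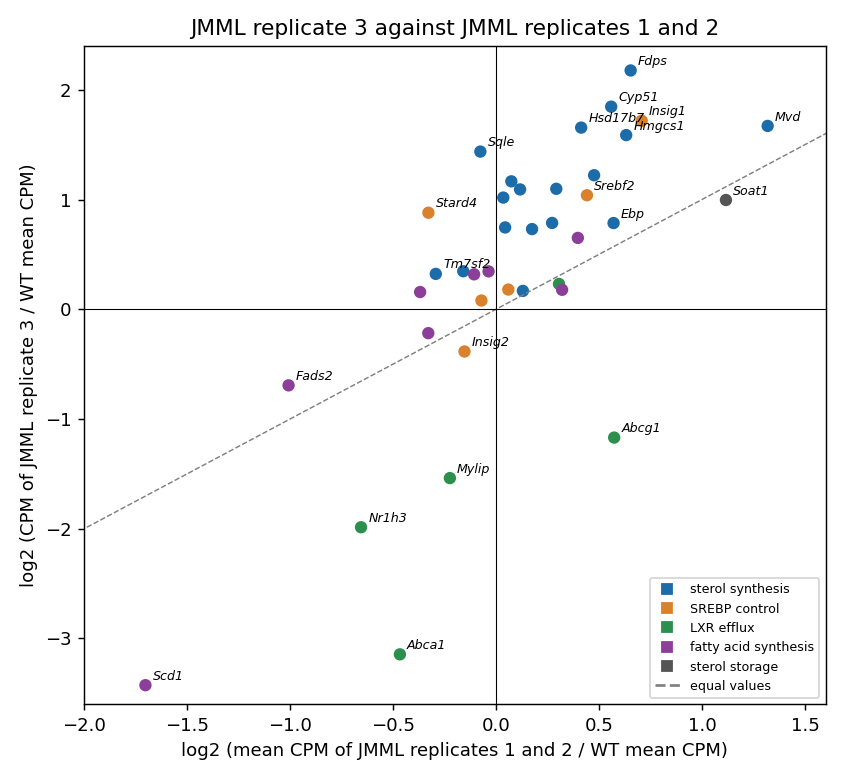
Each point is a member, coloured by branch: x is log2 of the mean CPM of JMML replicates 1 and 2 over the WT mean, y the same for JMML replicate 3, and the dashed line marks equal values. Sterol synthesis genes lie above the line, Idi1 close to it, and 4 of the 5 LXR efflux genes and Scd1 lie far below it.

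In SREBP control, the retention gene Insig1 and the factor gene Srebf2 rose while Insig2, Srebf1, Scap and Stard4 did not pass the test. Of 6 members 2 were called higher and none lower, beside 12.4% and 13.8% of all tested genes; the DESeq2 Wald test and an unadjusted p under 0.05 also gave 2 higher and 0 lower. Insig1, which is a retention protein and itself a target of SREBP (chromosome 5, 28071363 to 28078662), had 29.3, 27.9 and 57.6 CPM in JMML and 16.2, 16.5 and 19.8 in WT. The groups did not overlap and replicate 3 was again the highest. Insig1 rose 2.19-fold (1.13 ± 0.29, adjusted p = 0.0281 in edgeR), and was at 0.73 without JMML replicate 3 (adjusted p = 0.0252). The call ended when any single WT replicate was left out.

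Srebf2, the gene of SREBP2 (chromosome 15, 82147181 to 82205379), had 90.2, 96.7 and 141 CPM in JMML and 70.5, 56.4 and 79.6 in WT. The lowest JMML library was above the highest WT library. The 1.59-fold rise (0.67 ± 0.20, adjusted p = 0.0481 in edgeR) was just inside the threshold, and the call held in 8 of 18 alternative settings. It ended on leaving out JMML replicate 2 or 3 or any WT replicate, and with DESeq2 size factors or library totals. Srebf2 was at 0.46 without JMML replicate 3 (adjusted p = 0.109). Srebf1, the gene of SREBP1, had 62.0, 63.0 and 67.9 CPM in JMML and 64.3, 56.1 and 59.4 in WT, and its log2 fold change was 0.10 ± 0.10. Insig2, the second retention protein, was at −0.23 ± 0.15 and Scap, the escort, at −0.02 ± 0.16. Stard4, a cytosolic sterol carrier, had 23.9, 21.0 and 51.9 CPM in JMML and 27.4, 24.5 and 32.7 in WT, so that JMML replicates 1 and 2 were below the WT range and replicate 3 above it. Stard4 was at −0.31, Insig2 at −0.13 and Scap at −0.05 without JMML replicate 3.

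Levels within a pair of related genes can be compared per length. Per kilobase of exon, Srebf2 stood at 0.787 to 1.05 times Srebf1 in WT and at 1.14 to 1.63 times in JMML. Insig2 stood at 0.454 to 0.582 times Insig1 in WT and 0.122 to 0.291 times in JMML. Neither ratio overlapped between the groups, and the exact two-sided permutation test over 3 against 3 libraries gave p = 0.1 for each, the smallest p that this design allows. Scd1 with Scd2, Nr1h3 with Nr1h2, Abca1 with Abcg1 and Fads1 with Fads2 gave the same p by this test. All pairs were chosen with the values known, and Srebf2 and Insig1 were already called, so the ratios are no separate support.

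**Figure D3:**
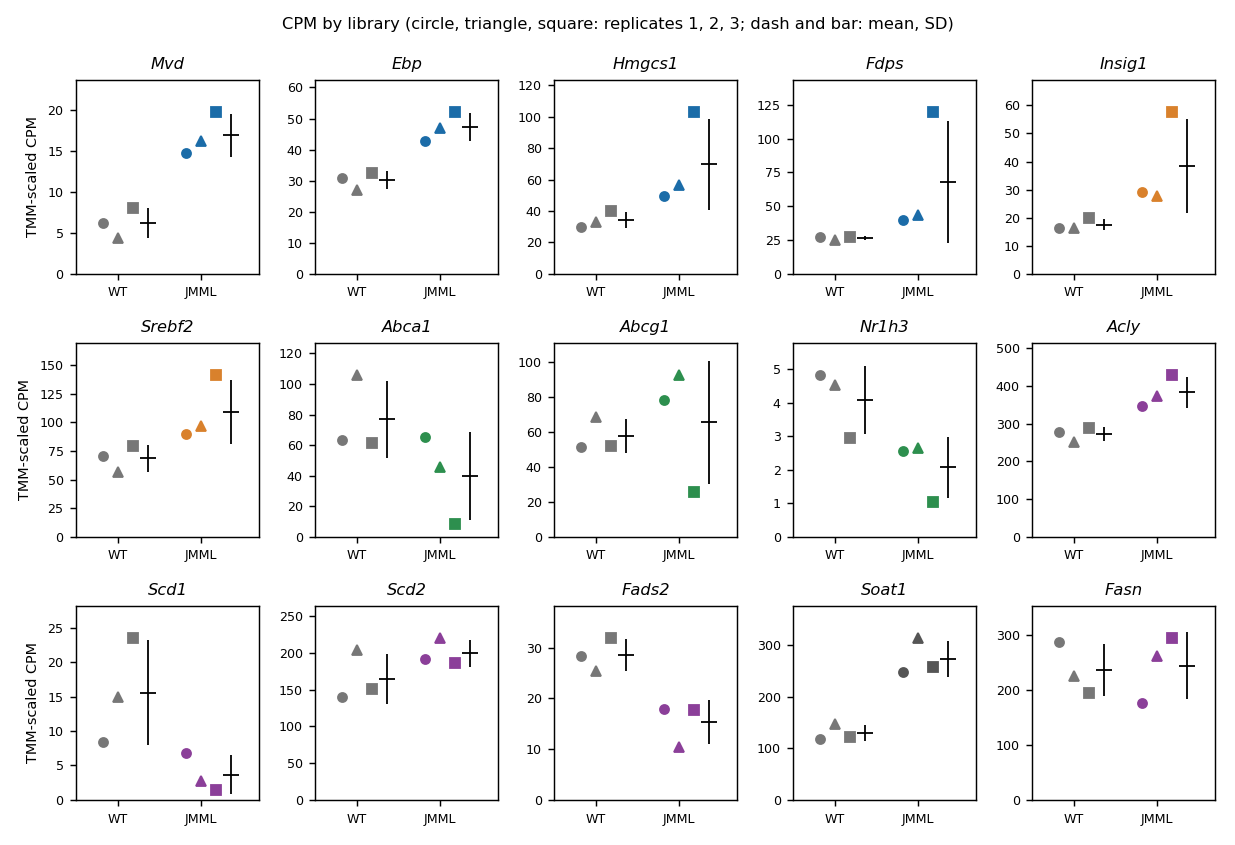
TMM-scaled CPM of 15 members in each library; circles, triangles and squares are replicates 1, 2 and 3, and the dash and bar are the mean and SD of 3 libraries. Mvd, Ebp, Hmgcs1, Fdps, Insig1, Srebf2, Acly and Soat1 lie higher in every JMML library, Nr1h3, Scd1 and Fads2 lie lower, and Abca1, Abcg1, Scd2 and Fasn overlap.

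The LXR efflux genes gave no call in either direction over the 3 and 3 libraries, with 1 lower by the DESeq2 Wald test (Nr1h3) and, at an unadjusted p under 0.05, 1 higher and 1 lower, beside 19.3% and 21.6% of all tested genes. JMML replicate 3 stood far from the other libraries in 4 of the 5. Abca1, the exporter that loads cholesterol on apolipoprotein A-I (chromosome 4, 53030787 to 53159895), had 65.4, 45.9 and 8.69 CPM in JMML and 63.6, 106 and 61.2 in WT. JMML replicate 1 lay inside the WT range and replicate 3 was 6.40-fold below the mean of replicates 1 and 2. The log2 fold change of Abca1 was −0.94 ± 0.62 (adjusted p = 0.288 in edgeR), and −0.44 without JMML replicate 3 (adjusted p = 0.282). Abcg1, the exporter to mature lipoproteins (chromosome 17, 31057675 to 31117988), had 78.3, 92.4 and 25.5 CPM in JMML and 51.3, 68.5 and 52.1 in WT. JMML replicates 1 and 2 were above every WT library and replicate 3 was below every one, and the pooled log2 fold change was 0.19 ± 0.42. Without JMML replicate 3 Abcg1 was called higher (0.60, adjusted p = 0.0497 in edgeR).

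Nr1h3, the gene of LXR-alpha, had 2.55, 2.65 and 1.03 CPM in JMML and 4.83, 4.52 and 2.94 in WT, a log2 fold change of −0.98 ± 0.40 (adjusted p = 0.108 in edgeR) and −0.63 without JMML replicate 3. The groups did not overlap. Nr1h2, the gene of the more widely expressed LXR-beta, had 44.8, 48.3 and 44.2 CPM in JMML and 39.7, 33.8 and 39.4 in WT (0.28 ± 0.12, adjusted p = 0.113), likewise without overlap. Per kilobase, Nr1h2 exceeded Nr1h3 by 5.61 to 10.1 times in WT and 13.2 to 32.0 times in JMML. Mylip, the ubiquitin ligase that LXR uses to remove lipoprotein receptors, had 38.7, 28.8 and 13.6 CPM in JMML and 36.5, 40.3 and 41.5 in WT. Its log2 fold change was −0.54 ± 0.33, and −0.20 without JMML replicate 3. Replicate 3 was the lowest of the 6 libraries in 4 of the 5 LXR efflux genes, Nr1h2 being the exception, against 21.1% of all tested genes.

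Resident macrophage markers were also low in JMML replicate 3. Their summed level was 374, 295 and 148 CPM in JMML, in replicate order, against 390 to 648 in WT. Of the 10 markers 5 were called lower and 1 higher, beside 13.8% and 12.4% of all tested genes. Replicate 3 was the lowest of the 6 libraries in 9 of the 10, against 21.1% of all genes. Vcam1 was lower (−1.67 ± 0.43) and Adgre1 higher (0.96 ± 0.22). Endothelial markers likewise had their lowest library in replicate 3 in 6 of 7 genes (47.6 CPM summed, against 58.1 and 80.3 in the other JMML libraries and 231 to 416 in WT). In JMML replicates 1 and 2 the resident macrophage sum was below every WT library, while Abcg1 was above every one. The part of resident macrophages and endothelial cells in the values of Abca1, Abcg1, Nr1h3 and Mylip was not tested.

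Fatty acid synthesis genes moved in both directions. Of 8 members 1 was called higher and 2 lower, beside 12.4% and 13.8% of all tested genes, with a median log2 fold change of −0.06. Acly, which supplies cytosolic acetyl-CoA to both pathways (chromosome 11, 100476353 to 100528000), had 348, 373 and 429 CPM in JMML and 279, 253 and 289 in WT. The groups did not overlap, and Acly rose 1.40-fold (0.49 ± 0.13, adjusted p = 0.0288 in edgeR). It had the highest level per kilobase of all 38 members, at 72.6 CPM per kb in JMML and 51.8 in WT. Its call held in 10 of 18 alternative settings, and ended with library totals (0.31) and on leaving out JMML replicate 2, JMML replicate 3 or any WT replicate. Fasn, the synthase itself, had 176, 262 and 294 CPM in JMML and 286, 226 and 195 in WT, and Acaca, the carboxylase that makes malonyl-CoA, had 84.5, 95.8 and 117 against 105, 91.7 and 81.0. Both overlapped between the groups, at log2 fold changes of 0.05 ± 0.22 and 0.10 ± 0.15. Fasn was at −0.082 and Acaca at −0.013 without JMML replicate 3.

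Among the desaturases the genes split. Scd1, the stearoyl-CoA desaturase (chromosome 19, 44394455 to 44407879), had 6.83, 2.76 and 1.45 CPM in JMML and 8.38, 14.9 and 23.5 in WT. It fell by 2.09 on the log2 scale (SE 0.60, adjusted p = 0.0407 in edgeR), and both groups were widely spread. The call ended on leaving out JMML replicate 2 (−1.90), JMML replicate 3 (−1.69), WT replicate 2 (−2.14) or WT replicate 3 (−1.63). Scd2, its neighbour on chromosome 19 (44293674 to 44306864) and the main form here, had 191, 220 and 186 CPM in JMML and 140, 203 and 150 in WT (0.27 ± 0.16, adjusted p = 0.241). Per kilobase, Scd2 exceeded Scd1 by 5.71 to 15.0 times in WT and 25.1 to 115 times in JMML. The 2 genes are close copies, so reads could be shared between them.

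Fat-cell markers were lower in the same libraries as Scd1. The summed level of 7 adipocyte markers was 1.19 to 10.5 CPM in JMML and 37.3 to 68.6 in WT. Of the 3 that passed the filter 2 were called lower, beside 13.8% of all tested genes. These were Adipoq at −3.82 ± 0.66 and Fabp4 at −2.86 ± 0.74. The defining markers Plin1, Cidec and Cidea had 0 counts in every JMML library and 5, 4 and 0 counts summed over the 3 WT libraries. Their part in the Scd1 value was not tested. Hepatocyte markers were near 0, with Alb, Ttr, Serpina1a and Ahsg at 0 counts in all JMML libraries.

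Fads2, a desaturase of polyunsaturated fatty acids (chromosome 19, 10062765 to 10101746), had 18, 10.4 and 17.7 CPM in JMML and 28.3, 25.5 and 31.9 in WT. The groups were well apart, and Fads2 was 1.86-fold lower (−0.90 ± 0.23, adjusted p = 0.0276 in edgeR). Leaving out any WT replicate ended the call. Fads1, a second such desaturase on the same chromosome, had 30.7, 33.5 and 34.7 CPM in JMML and 41.0, 38.2 and 41.7 in WT, also without overlap (−0.29 ± 0.11, adjusted p = 0.0948). Elovl6, which extends palmitate, was at −0.17 ± 0.21 and overlapped, and was at −0.34 without JMML replicate 3.

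Soat1, which esterifies cholesterol for storage in droplets (chromosome 1, 156424525 to 156474331), was called higher. It had 248, 313 and 258 CPM in JMML and 119, 148 and 122 in WT, so that every JMML library was far above every WT library. The means were 273 ± 35.0 and 130 ± 15.8 CPM (SD, n = 3), a 2.11-fold rise (1.08 ± 0.14, adjusted p = 0.00401 in edgeR). Soat1 did not follow the replicate 3 pattern, with replicate 3 at 0.920 times the mean of replicates 1 and 2, and its call held in all 18 alternative settings, between 0.89 and 1.28. Monocyte markers had 3546, 3449 and 2703 CPM summed in JMML and 1424 to 1495 in WT, and their part was not tested.

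**Figure D4:**
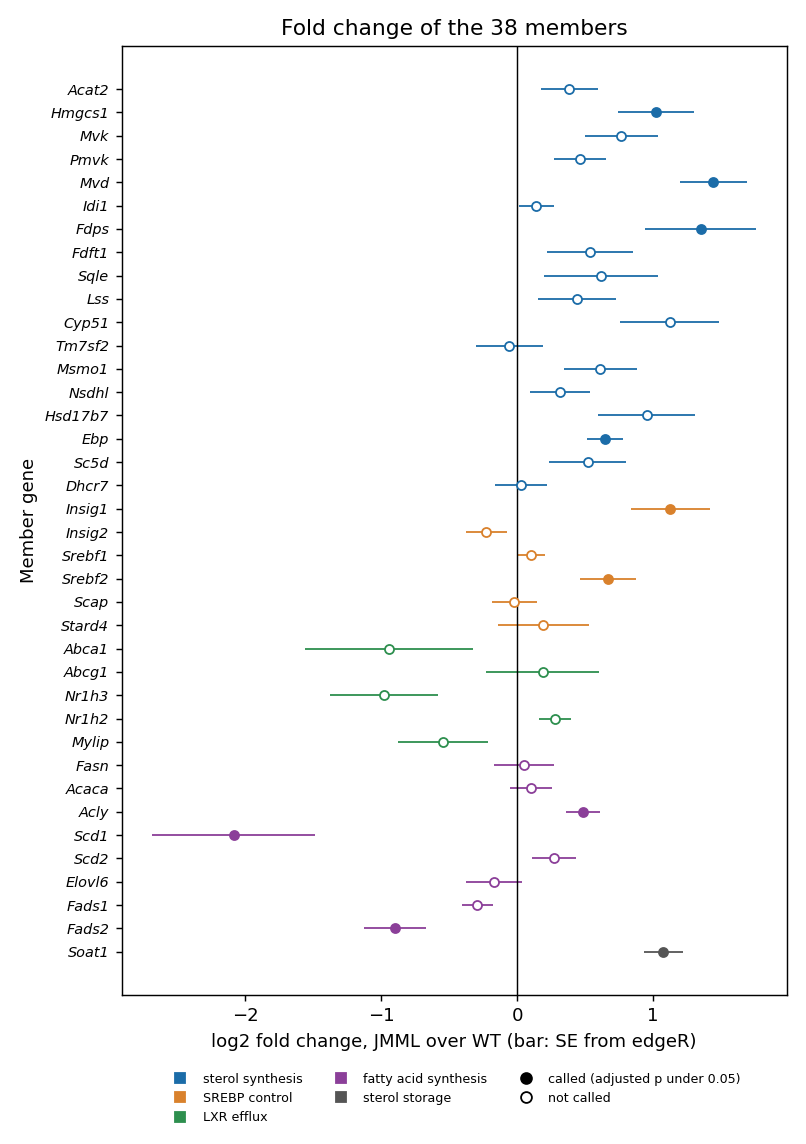
Log2 fold change, JMML over WT, of the 38 members with standard errors derived from the edgeR F statistic. Filled points have an adjusted p under 0.05 in edgeR. Sterol synthesis genes lie mostly between 0 and 1.45, Abca1 and Scd1 carry the widest bars, and Scd1 is the lowest at −2.09.

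Over all 38 members 8 were called higher (21.1%) and 2 lower (5.26%), beside 12.4% and 13.8% of all tested genes. The groups did not overlap in 18 of the 38 (47.4%), against 47.5% of all tested genes (22.9% with JMML higher and 24.6% with JMML lower), so by that measure the members were at the background. Under other settings the share of all genes called higher and lower was 7.07% and 19.1% with library totals, 7.5% and 8.02% with the replicate block, and 5.35% and 6.91% with the letter as a covariate. On the M libraries alone it was 5.02% and 6.44%, where the lone JMML library is assumed to vary like the WT libraries. It was 12.3% and 13.8% with DESeq2 size factors, 12.3% and 14.7% with voom, 12.9% and 15.9% with a filter of 50 counts, and 13.3% and 14.3% after thinning.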

How the data were processed

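The deposited files hold raw read counts per gene, 1 table per library, which the authors made after alignment; the submitters' processing notes name STAR 2.5.3a, StringTie 1.3.3b and GRCm38, with no role or order, and the labels name a stranded total RNA kit. Which tool counted, and whether by strand, is not given in the sources used here. Even values made up 51.6% to 58.8% of counts from 1 to 20. Of 46078 identifiers, 45143 (98.0%) matched GENCODE vM21, which gave symbols, coordinates and exon lengths.

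Counts from libraries of 47096464 to 108395459 were fitted with edgeR 4.0.16 (filterByExpr, TMM scaling, quasi-likelihood F test, JMML against WT) in R 4.3.3, with Benjamini-Hochberg adjustment over 18097 genes at 0.05. CPM are TMM-scaled. SE is the fold change's standard error. Alternatives used DESeq2 1.42.0, limma 3.58.1 voom, other scalings and filters, a replicate block, the identifier letter, thinning to 47096464 counts, exon length, protein-coding genes, and each library left out. Simulated counts of 17708 genes had 50 genes changed at each of 1.5-, 2-, 4- and 8-fold. Of these 2%, 24%, 86% and 94% were recovered, and 6 of 109 calls were false. The real fit called 4737 of 18097 genes, which sets a looser cut on the unadjusted p. The simulated shares therefore do not give the recovery of the real comparison. How many small changes were missed is not known.

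Named genes are all 38 members, up to 4 genes with the smallest p of each related list and up to 2 with the highest mean CPM of each marker list. Members and lists were chosen with earlier results of these data known. Replicate numbers name libraries and were not used as pairs in the main fit.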

Additional observations from a re-analysis of the deposited data

How the results depend on the processing

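Mvd and Soat1 kept their calls in all 18 alternatives. The letter as covariate and the M libraries alone both set JMML replicate 3 against WT, so their values describe that library and not the group. Over the 38 members and 18 alternatives, 573 values kept direction and call, 35 gained a call, 43 lost one and 33 changed sign; the cause was not tested. Depth and 3 libraries a group limit small changes.

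Genes called higher over the whole table numbered 2245, but 1280 with library totals, 1358 with the replicate block, 969 with the letter as covariate and 1012 in the libraries ending in M. Those called lower numbered 2492, but 1451, 1250 and 1298 with the block, the letter and the letter M alone. Library totals shifted all genes by −0.18 (log2), giving 1280 higher and 3460 lower, and fold changes are read against that shift. Sterol synthesis calls went from 4 to 2 with library totals, 7 with the DESeq2 Wald test or no filter, and 12 with the letter or M alone. SREBP control had 1 call with DESeq2 size factors, library totals, voom, the 50-count filter or thinning. LXR efflux had 1 lower with the Wald test and 4 with the letter or M alone. Fatty acid synthesis had 0 higher with totals, block or M alone, and 1 lower with block, letter or M alone. Each gene's group mean was subtracted from its log2 CPM, and the remaining deviations were correlated between JMML and WT libraries. Deviations of same-numbered libraries correlated at −0.159, 0.0811 and −0.167, and those of differently numbered ones at up to 0.251. JMML replicate 3 differed in sex from JMML replicates 1 and 2, so these values cannot tell whether any libraries shared an origin. With the block, Fdps (1.15, adjusted p = 0.0766 in edgeR), Acly (0.48, 0.0603) and Scd1 (−2.26, 0.104) lost their calls.

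With 1 library left out, genes higher ranged from 1050 to 1955 and lower from 1153 to 2048, sterol synthesis calls from 1 to 6, SREBP control from 0 to 2, LXR efflux higher from 0 to 1, fatty acid higher from 0 to 1 and lower from 0 to 2, and Soat1 from 0.98 to 1.18.

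Values that changed sign are given here. Library totals gave Idi1 −0.043, Dhcr7 −0.15, Srebf1 −0.082, Abcg1 −0.0031, Fasn −0.13 and Acaca −0.079. The filter of 50 counts gave Dhcr7 −0.027 and Fasn −0.0027, no filter gave Tm7sf2 0.033 and Scap 0.065, and length correction gave Scap 0.095. The letter gave Tm7sf2 0.32, Scap 0.079, Abcg1 −1.17, Elovl6 0.16 and Arl4c −0.027, and M alone gave 0.36, 0.12, −1.13 and 0.19 for the first 4. With 1 library left out, Sqle ranged from −0.057 to 0.95, Tm7sf2 from −0.27 to 0.075, Dhcr7 from −0.14 to 0.20, Scap from −0.12 to 0.15, Stard4 from −0.31 to 0.44, Abcg1 from −0.13 to 0.60, Fasn from −0.082 to 0.27, Acaca from −0.013 to 0.25 and Elovl6 from −0.34 to 0.032. Without JMML replicate 3, Sqle, Dhcr7, Stard4, Fasn and Acaca were below 0.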

Other observations

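Lists of genes next to these pathways were read with the same test, and none of the lists is independent of earlier results of these data. In sterol uptake, egress and transport, 5 of 15 genes were called higher and 1 lower in edgeR's test, with a median of 0.29, beside 12.4% and 13.8% of all tested genes. Npc2 (1.32 ± 0.14, SE) and Npc1 (0.63 ± 0.12), which pass cholesterol out of the lysosome, were higher. The endosomal sterol carrier Stard3 (0.78 ± 0.12) and the oxysterol-binding protein gene Osbpl2 (0.62 ± 0.11) were higher too. The fifth, Osbpl9 (0.54 ± 0.11), and the lower gene, Gramd1c (−1.18 ± 0.32), fall outside the naming rule and were chosen after their values were seen. The summed level was 1374 to 1873 CPM in JMML and 1077 to 1165 in WT. Resident macrophage and monocyte markers also differed between the groups, and their part was not tested.

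The next counts stand beside 12.4% of all tested genes called higher and 13.8% called lower in edgeR. At an unadjusted p under 0.05 the shares were 19.3% and 21.6%, and by the DESeq2 Wald test 15.1% and 16.9%. In oxysterol and sterol ester turnover, 2 of 7 tested genes were higher, Nceh1, which cleaves cholesterol esters (0.84 ± 0.11), and Acaa1a, a peroxisomal thiolase (0.75 ± 0.13). None was called lower in edgeR or by the DESeq2 Wald test, and 2 were lower at an unadjusted p under 0.05. Among other LXR partners and targets, 1 of 8 tested was higher, Smpdl3a (1.03 ± 0.26), and 0 were lower in edgeR, at an unadjusted p under 0.05 or by the DESeq2 Wald test. The machinery that cuts SREBP or degrades its partners had 1 of 9 higher, Erlin1 (0.45 ± 0.11), and 1 lower, the ubiquitin ligase gene Syvn1 (−0.84 ± 0.18). Isoprenoid and prenylation genes had 1 of 15 higher, Nus1 of dolichol synthesis (0.35 ± 0.10), and 1 lower. The lower gene was Fntb, the beta subunit of the farnesyltransferase that modifies Ras (−0.75 ± 0.16). In fatty acid supply, elongation and activation, 4 of 19 tested were higher and 1 lower. Acsl1, which activates long-chain fatty acids, was at 0.54 ± 0.09, and the elongation genes Hsd17b12 and Elovl5 were at 0.56 ± 0.11 and 0.53 ± 0.11, with Hacd2 at 0.62. The lower gene, Acacb (−1.11 ± 0.26), was named after its value was seen. Fatty acid oxidation had 4 of 15 higher, Etfb (0.65 ± 0.12), the carnitine carrier Slc25a20 (0.76 ± 0.16), Hadhb (0.35 ± 0.10) and Hadh (0.35 ± 0.10). None was lower in edgeR, at an unadjusted p under 0.05 or by the DESeq2 Wald test. With 1 library left out, higher calls ranged from 0 to 1 for the SREBP machinery and for isoprenoid and prenylation genes. They ranged from 0 to 3 for other LXR partners and for fatty acid oxidation. For oxysterol turnover the range was 2 to 3, and for fatty acid supply 3 to 5.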
